A study of Mus musculus with 6 samples.

Results

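Heat shock proteins and chaperones are the proteins that help other proteins fold, hold unfolded chains in solution and hand damaged chains over for degradation. The 40 genes described here were found by their symbols among the 54532 genes of the deposited table, with 1 row for each symbol. They cover the HSP70, HSP110, HSP90 and small HSP classes, J proteins, the mitochondrial chaperonin, the 8 subunits of the cytosolic chaperonin TRiC, 3 co-chaperones and 2 heat shock factors. They were measured by RNA-seq in ovarian granulosa cells (GCs), the somatic cells that surround the oocyte, of 3-week-old female ICR mice. All mice had received 5 IU of PMSG, a gonadotropin that drives follicle growth. At 22 h after PMSG, 1 group was given PBS and the other 120 mg/kg CTX (cyclophosphamide, an alkylating drug used in chemotherapy) by intraperitoneal injection, and GC collection followed at 6 h. There were 3 biological replicates per group. The GCs of 3 mice were pooled for each of them, so the spread between single mice was not measured. The comparison asks what the drug, given to the whole animal, changed in the RNA of GCs within hours.

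Cells that meet unfolded proteins, heat or oxidants raise many of these genes together through the transcription factor HSF1, in what is called the heat shock response. HSP70 proteins bind short stretches of unfolded chain in a cycle driven by ATP, J proteins deliver those chains to them, and HSP110 and BAG proteins release the bound nucleotide so that the cycle can start again. HSP90 finishes the folding of kinases and steroid receptors, and TRiC folds actin and tubulin. The endoplasmic reticulum (ER) and the mitochondrion hold chaperones of their own, and the ER set answers mainly to unfolded protein in that compartment. GCs of growing follicles divide quickly and make large amounts of secreted hormone subunits.

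After CTX treatment, 2 of the 40 genes rose and none fell in a fit over all genes (limma, adjusted p below 0.05). *Dnajb4*, a J protein that works with HSP70 in the cytosol, rose 1.88-fold, and *Hspa8*, the constitutive HSP70 of the cytosol, rose 1.44-fold. *Dnajb1*, the best known heat-inducible J protein, and *Bag3*, which links HSP70 to the clearance of protein aggregates, were higher in each CTX sample than in any PBS sample but did not pass the adjusted threshold. The classical heat-inducible HSP70 genes *Hspa1a* and *Hspa1b* were at 1.09 and 1.21 times their PBS means and did not pass, and the ER chaperone *Hsp90b1* was lower in each CTX sample than in any PBS sample without passing the test. The 2 that rose are 5% of the members, beside 1.4% of the 14463 tested genes that rose, and the count of 0 that fell stands beside 0.36% of tested genes. At an unadjusted p below 0.05, 6 of the 40 members were higher and 5 were lower, beside 10.5% and 9.1% of tested genes. With the additional demand for more than a 2-fold change, which defined DEGs in the study's methods, no member was called, beside 0.961% of tested genes. The study's own comparison was not used, so this count does not tell which members were DEGs there. limma's voom on reads rebuilt from the values also called *Dnajb4* and *Hspa8* higher and none lower.

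All 40 genes were detected at a mean of at least 0.5 FPKM (fragments per kilobase of gene length, brought to a common depth by the authors), so each was tested. Under PBS their summed FPKM was 3345, 3231 and 3464, and under CTX it was 3587, 3808 and 3483, which is 1.04% to 1.07% of all FPKM under PBS and 1.04% to 1.14% under CTX. Levels under PBS ran from 0.722 FPKM for *Cryab* to 902 FPKM for *Hsp90ab1*, which ranked 19 among all genes. Of the 40, 28 had a log2 fold change above 0 and 12 below 0 as deposited, 21 and 19 after scaling to total FPKM, 22 and 18 after quantile normalization, and 25 and 15 with voom on rebuilt reads. Their median was 0.07, beside -0.01 over all tested genes. In 12 members (30%) all CTX samples were above all PBS samples, beside 15.0% of tested genes. In 5 members (12.5%) all CTX samples were below all PBS samples, beside 14.1% of tested genes. The groups overlapped in the other 23.

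**Figure D1:**
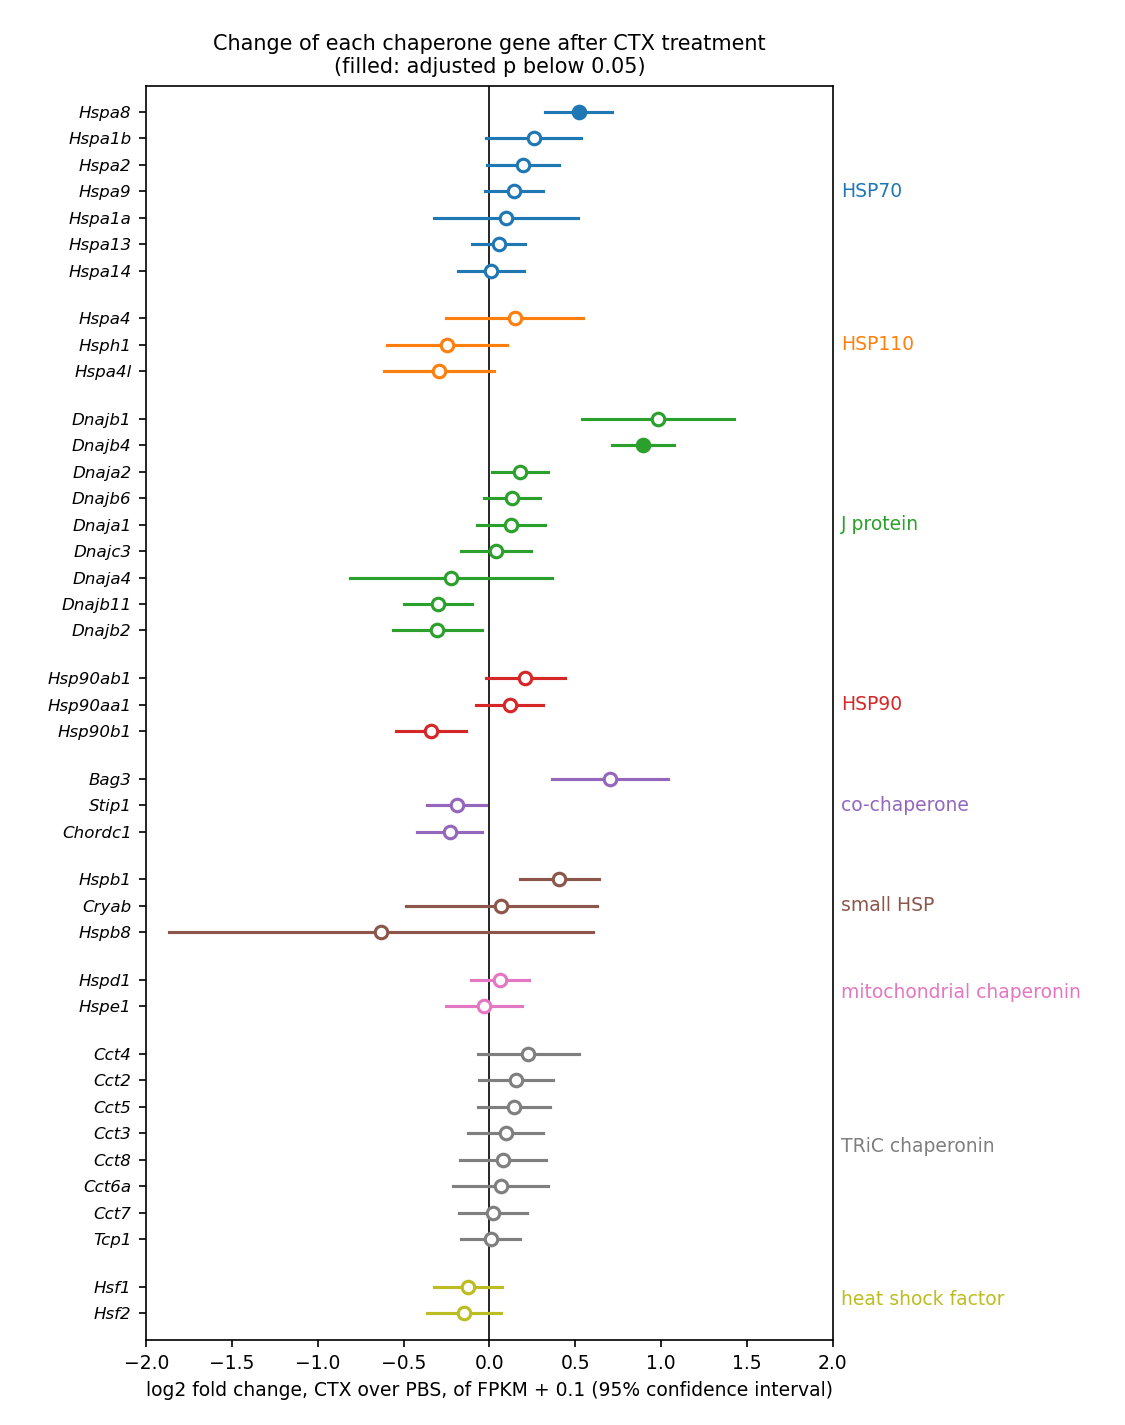
Log2 fold change of FPKM + 0.1 (CTX over PBS, horizontal axis) for each of the 40 genes, ordered by class, where lines are 95% confidence intervals from the limma fit with 3 samples a group and filled points passed an adjusted p of 0.05. *Hspa8* and *Dnajb4* are the 2 filled points, while *Dnajb1* and *Bag3* lie far to the right with wider intervals and the interval of *Hspb8* runs from -1.87 to 0.60.

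Depth was even, with 16005869 to 18455011 rebuilt reads per sample. The second CTX sample stood apart from the other 5 on the first principal component (46.8% of the variance), at 74.7 against -26.6 to 13.2. It was also the highest of the 6 samples in 21 of the 40 chaperone genes (52.5%), beside 29.9% of all tested genes. The 8 granulosa markers were above 5 FPKM in every sample and summed to 11400 to 12600 FPKM under PBS and 10200 to 10860 under CTX, most of it *Inha*, and none of them passed the test. Single markers moved more than the sum, most of all in CTX sample 2. The aromatase gene *Cyp19a1* was at 59.2 to 62.4 FPKM under PBS and at 47.6, 6.61 and 32.5 under CTX, *Inhba* at 754 to 902 and at 665, 211 and 487, and *Foxl2* at 184 to 194 and at 145, 76.9 and 107. *Amh* was highest in CTX sample 2, at 179 FPKM. These genes were singled out after their values were seen. Markers of macrophages and leukocytes summed to 24.7 to 28.7 FPKM under PBS and to 39.7, 72.6 and 29.8 in CTX samples 1, 2 and 3, with the leukocyte marker *Ptprc* and *Itgam* under 0.5 FPKM in each sample. The largest part was *Lyz2*, at 13.1 to 14.3 FPKM under PBS and 22.9, 45.8 and 14.7 FPKM under CTX. Not all markers of the list moved alike, since *S100a8* was lowest in CTX sample 2 (0.081 FPKM). Markers of theca and stroma summed to 30.4 FPKM in CTX sample 2 and to 57.6 to 80.9 in the others, and 1 of 8 was called higher (*Acta2*, 7.66 to 8.60 FPKM under PBS and 14.7, 20.5 and 16.7 FPKM under CTX, so that it was highest in the sample with the lowest sum). Erythroid markers summed to 138 FPKM in CTX sample 2 and to 319 to 497 elsewhere. Oocyte markers summed to 36.3 to 89.9 FPKM, and endothelial markers to 1.99 to 5.64 with 5 of 7 under 0.5 FPKM in each sample. No marker in these lists was at 0 in all samples. The part of these cell types in the results below was not tested, and in bulk samples fewer cells of a type and less RNA per cell cannot be told apart.

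Promoter sequence was read for 32 of the 40 genes from RefSeq (GRCm38.p6), which gave 43 windows of 250 bases before to 50 after a start site. HSF1 binds repeats of a short unit in alternating orientation, called the heat shock element (HSE). A strict HSE of 3 units, GAANNTTCNNGAA or TTCNNGAANNTTC on either strand, was found in 5 of the 32 genes (15.6%), beside 0.662% of the 27025 genes in the promoter table. A shorter pair of units, GAANNTTC or TTCNNGAA, which every 3-unit match also contains, was found in 16 of the 32 (50%), beside 17% of all genes. None of 79 other proteostasis genes with a window held the 3-unit HSE. A match describes the letters in this window only. The 5 genes with a 3-unit HSE are shown first, each with its matched letters in capitals. None of them is among the genes that rose. As 1.4% of all tested genes rose, 5 genes are too few to compare with that share. *Hspd1* and *Hspe1* lie head to head and share 1 stretch with 2 overlapping matches, printed on the strand of each gene. *Chordc1* holds 3 overlapping matches. In these genes the run of capitals is longer than 1 element of 3 units. The windows were kept short where they lie in annotated exons of GENCODE M21.
*Hsph1* (chr5:149636280-149636308, minus strand): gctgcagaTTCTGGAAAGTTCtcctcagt
*Chordc1* (chr9:18292260-18292288, plus strand): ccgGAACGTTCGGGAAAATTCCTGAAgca
*Dnajb6* (chr5:29735844-29735872, plus strand): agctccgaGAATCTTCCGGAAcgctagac
*Hspd1* (chr1:55088053-55088082, minus strand): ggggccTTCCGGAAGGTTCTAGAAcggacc
*Hspe1* (chr1:55088053-55088082, plus strand): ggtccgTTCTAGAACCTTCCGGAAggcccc

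Of the genes that rose, *Dnajb4* had no strict 3-unit HSE in its windows and *Hspa8* had no window to search. *Dnajb4*, *Bag3* and *Hspb1* held the shorter pair, and so did *Hspa1a* and *Hspa1b*, whose printed stretches have the same letters. The windows of *Dnajb1* held neither form. *Hspa8*, *Hspa9*, *Hspa13*, *Hsp90aa1*, *Hsp90ab1*, *Cryab*, *Cct4* and *Hsf1* were not among the sequences used here. Capitals mark the pair, which begins 14 bases before the start site in 1 of the 2 windows of *Dnajb4*, 117 and 97 bases before it in *Hspb1*, 104 bases before it in both *Hspa1* genes, and 42 bases after it in *Bag3*. The other window of *Dnajb4*, which holds the annotated start of the gene, had neither form.
*Dnajb4* (chr3:152193832-152193879, minus strand): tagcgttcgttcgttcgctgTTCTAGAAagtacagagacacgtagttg
*Bag3* (chr7:128523605-128523632, plus strand): aagttctctggatgggaccaGAAGTTTC
*Hspb1* (chr5:135887782-135887849, plus strand): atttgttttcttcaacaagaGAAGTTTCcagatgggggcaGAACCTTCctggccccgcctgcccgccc
*Hspa1a* (chr17:34972233-34972280, minus strand): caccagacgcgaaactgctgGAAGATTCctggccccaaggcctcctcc
*Hspa1b* (chr17:34959315-34959362, minus strand): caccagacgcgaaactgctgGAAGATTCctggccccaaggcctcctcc

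The 5 members with a 3-unit HSE had log2 fold changes of -0.25 to 0.13 (median -0.03), and the lowest adjusted p among them was 0.195. The 11 members with a pair only ran from -0.63 to 0.90 (median 0.15), with *Hspb8* at the low end and *Dnajb4* at the high end. The 16 members with neither ran from -0.34 to 0.98 (median 0.02), from *Hsp90b1* to *Dnajb1*. Groups that differed in these letters therefore overlapped widely in their changes, and no test was made between them.

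**Figure D2:**
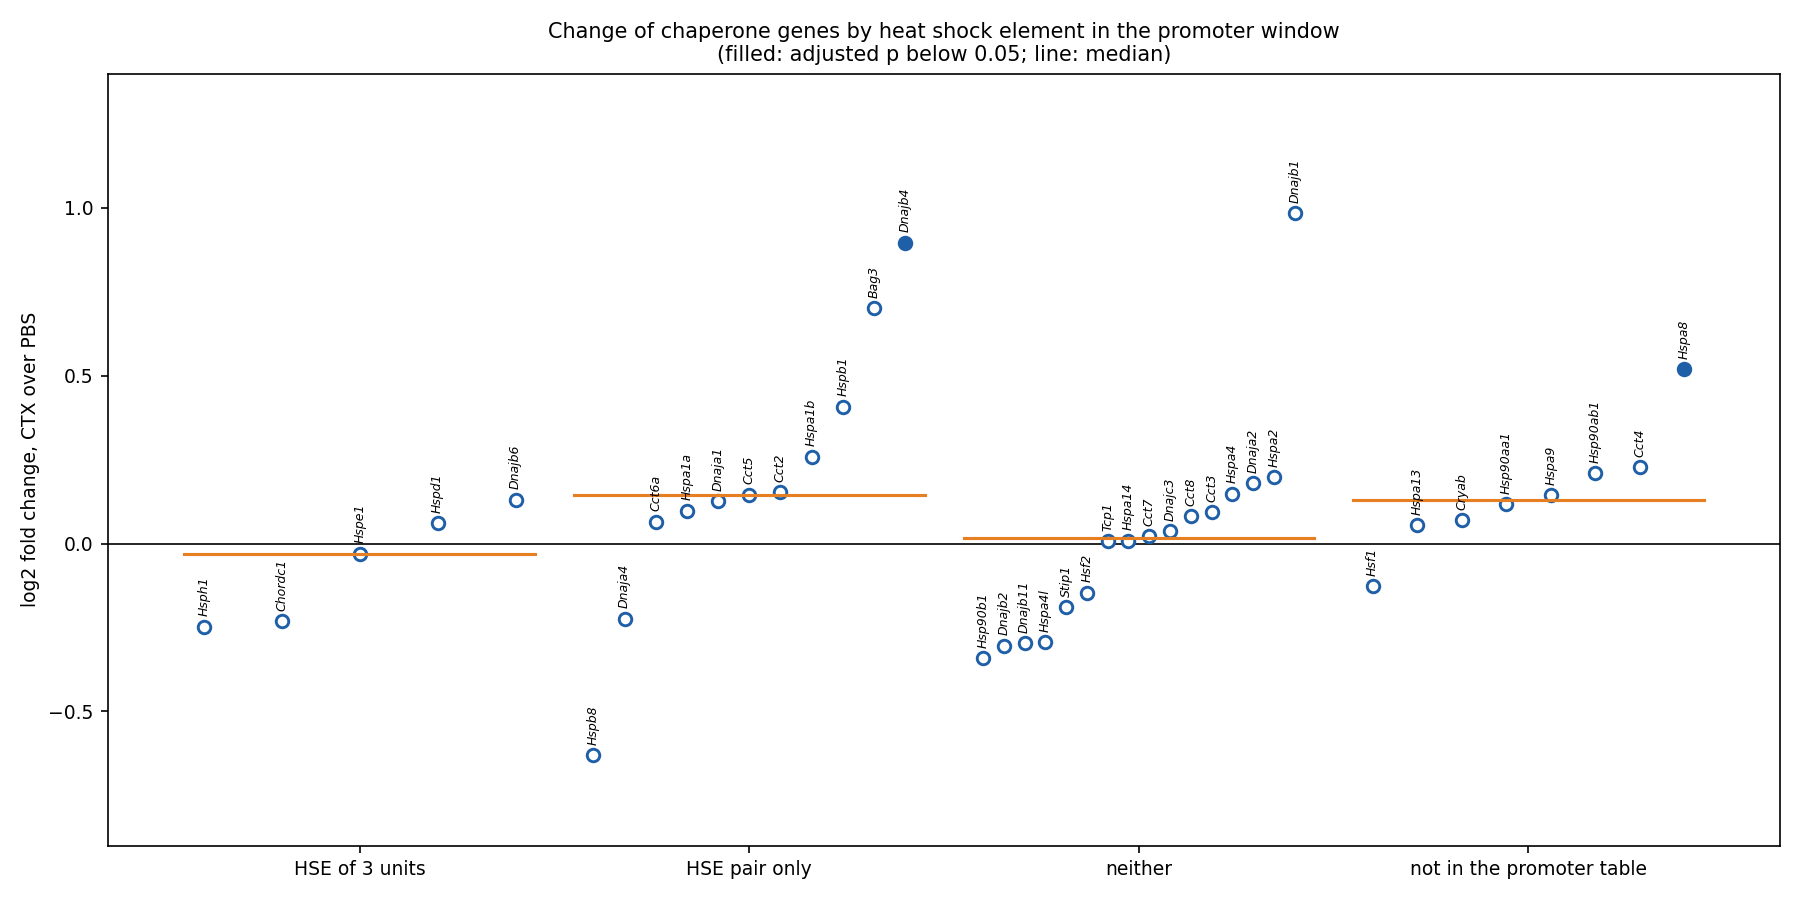
Log2 fold change (CTX over PBS, vertical axis) of each of the 40 genes, grouped by whether its promoter window holds a strict heat shock element of 3 units (5 genes), a pair of units only (11), neither (16) or was not in the promoter table (8). Orange lines are medians and filled points passed an adjusted p of 0.05. The 3-unit group runs from -0.25 to 0.13 and overlaps widely with the other groups, whose medians are 0.02 to 0.15. *Dnajb1*, *Dnajb4*, *Bag3* and *Hspa8* in those groups are the highest points of the 40.

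The HSP70 class is the centre of the cytosolic folding machinery. *Hspa8* (ENSMUSG00000015656, GRCm38 chr9:40800984-40810087) makes the HSP70 that GCs hold at the highest level among the members of this class. It was at 255, 244 and 259 FPKM under PBS and at 357, 389 and 342 FPKM under CTX. The groups lay far apart, and CTX sample 2 was the highest. The mean rose from 253 ± 7.59 to 363 ± 23.6 FPKM (SD, n = 3), a log2 fold change of 0.52 (SE 0.080) with an adjusted p of 0.0353 in limma. These values rest on 18039 to 29647 reads per sample. The call was close to the threshold. It held without CTX replicate 2 (adjusted p 0.0284), and it was lost in limma without PBS replicate 1 (0.202), PBS replicate 2 (0.206), PBS replicate 3 (0.125), CTX replicate 1 (0.0517) or CTX replicate 3 (0.109), while the log2 fold change stayed between 0.47 and 0.56. Of its 50-base stretches, 39.4% also occur in other genes, mostly in the pseudogene *Gm15459*, which was listed at 0 in all 6 samples. The ratio of *Hspa8* to *Hsp90ab1* FPKM was 0.279 to 0.282 under PBS and 0.341 to 0.352 under CTX, so *Hspa8* was higher relative to the most abundant member as well as in its own level.

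The stress-inducible pair *Hspa1a* and *Hspa1b*, which heat raises from near silence in many cells, was detected far below *Hspa8* in both groups. By PBS mean, *Hspa1b* ranked 5357 and *Hspa1a* 10296 among all genes. *Hspa1a* was at 2.63, 2.57 and 2.27 FPKM under PBS and 3.24, 2.77 and 2.11 FPKM under CTX. Its groups overlapped, with CTX sample 1 the highest and CTX sample 3 the lowest of all, and its fold change was 1.09 (95% interval 0.80 to 1.43, adjusted p 0.769 in limma). *Hspa1b* was at 9.61, 10.1 and 9.40 FPKM under PBS and 10.8, 13.8 and 10.5 FPKM under CTX. Each CTX sample of *Hspa1b* lay above the PBS samples, 2 of them narrowly, with a 1.21-fold difference that did not pass the test (95% interval 0.99 to 1.45, adjusted p 0.277 in limma). These genes share 58.8% and 62.3% of their 50-base stretches with each other, so the split of reads between them is uncertain. Their summed FPKM depends on that split only through their lengths, which are close (2967 and 2803 bases). It covers only the reads that were counted for either gene. The sum was 12.2 ± 0.492 FPKM under PBS and 14.4 ± 1.98 FPKM under CTX (SD, n = 3), with CTX sample 3 (12.6) close to PBS sample 2 (12.7).

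The other HSP70 genes did not pass the test. *Hspa2* and the mitochondrial *Hspa9*, which pulls imported proteins into the matrix, were higher in each CTX sample than in any PBS sample, by 1.15-fold and 1.11-fold, with adjusted p-values of 0.273 and 0.304 in limma. *Hspa13*, an HSP70 of the ER and microsomes, and *Hspa14*, which works at the ribosome, overlapped between the groups with log2 fold changes of 0.05 and 0.01. All 7 genes of the class had a log2 fold change above 0 as deposited, with a median of 0.14, against 5 after scaling to total FPKM and 6 after quantile normalization or with voom, and 1 passed the test. Their summed FPKM was 400, 384 and 405 under PBS and 511, 554 and 496 under CTX, of which *Hspa8* made up the largest part.

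**Figure D3:**
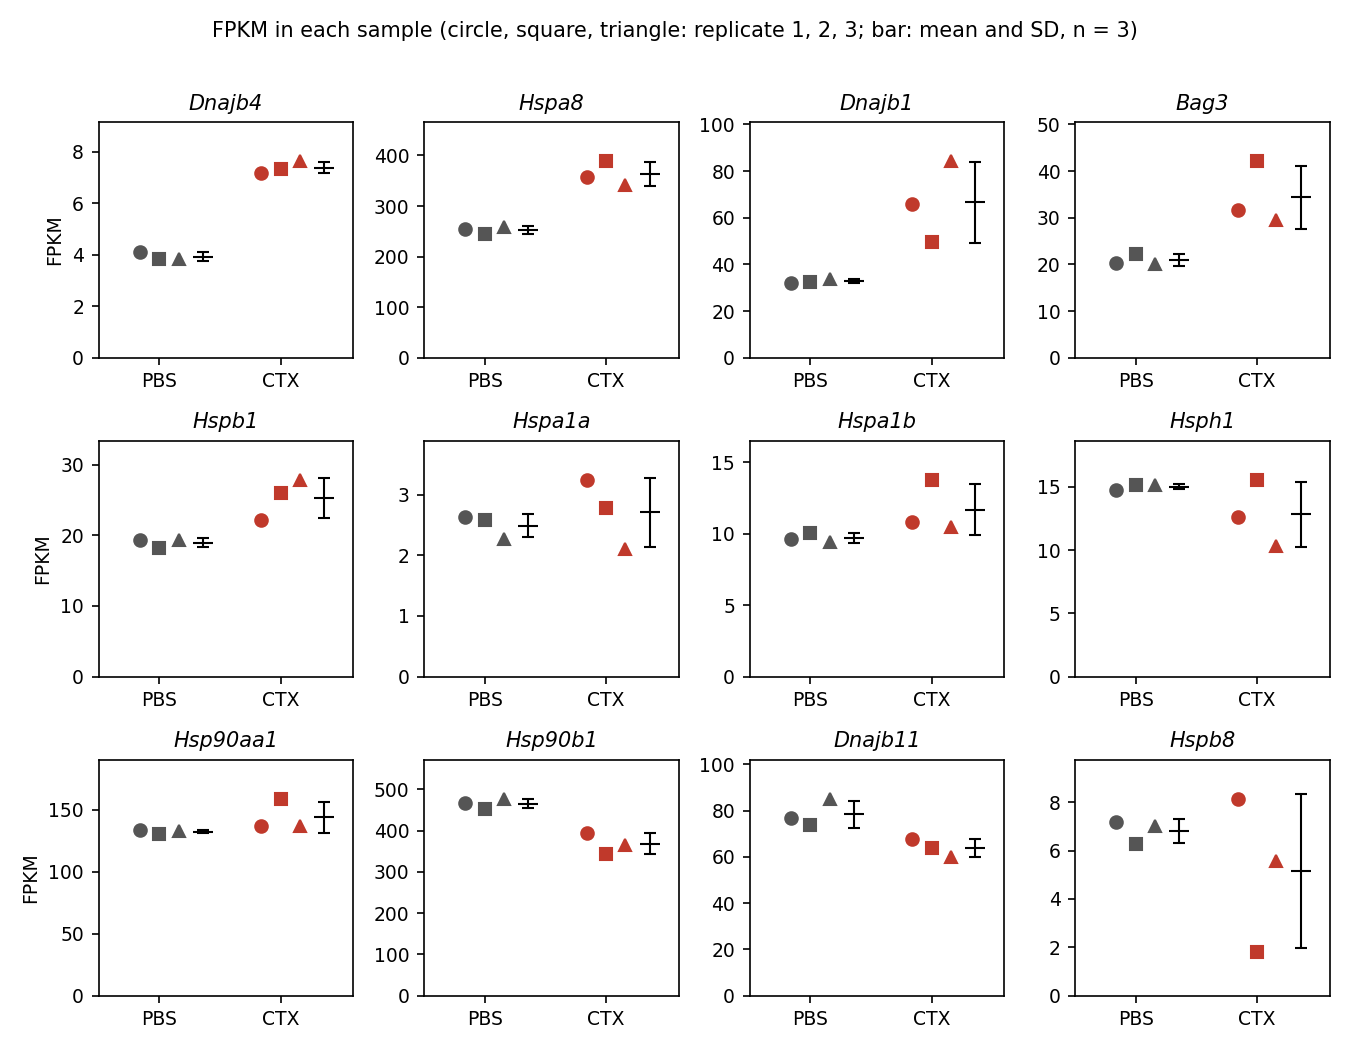
FPKM (vertical axes, each starting at 0) of 12 genes in each PBS sample (grey) and CTX sample (red). Circles, squares and triangles are replicates 1, 2 and 3, and the black marks are mean and SD (n = 3). *Dnajb4* and *Hspa8* show tight and separate groups, *Dnajb1* a wide CTX group from 49.5 to 84.2 FPKM, and *Hspb8* a CTX group from 1.79 to 8.12 FPKM that spans the PBS values.

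Among the J proteins, *Dnajb4* (ENSMUSG00000028035, chr3:152178511-152210302) had the smallest adjusted p of the 40. It was at 4.11, 3.81 and 3.83 FPKM under PBS and at 7.18, 7.33 and 7.62 FPKM under CTX. The CTX samples lay close together and well above the PBS samples. The mean rose from 3.92 ± 0.166 to 7.38 ± 0.227 FPKM (SD, n = 3), a log2 fold change of 0.90 (SE 0.076, adjusted p 0.00411 in limma). The values rest on 544 to 1197 reads per sample. Leaving out any 1 sample kept the call, with adjusted p-values of 0.00481 to 0.0426 in limma. *Dnajb4* overlaps no other annotated exon and shares no 50-base stretch with another gene.

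*Dnajb1* (ENSMUSG00000005483, chr8:83608193-83612653), the J protein usually induced together with *Hspa1a*, was at 32.2, 32.4 and 33.9 FPKM under PBS and at 66.1, 49.5 and 84.2 FPKM under CTX. The PBS samples lay close together, while the CTX samples were spread widely, all above them. The means were 32.9 ± 0.938 and 66.6 ± 17.4 FPKM (SD, n = 3), with a log2 fold change of 0.98 (SE 0.18) that did not pass (adjusted p 0.0630 in limma). Without CTX replicate 2, the lowest of the CTX samples, the log2 fold change was 1.18 and the adjusted p 0.00454 in limma. With any other sample left out *Dnajb1* did not pass (adjusted p 0.0758 to 0.263 in limma). The ratio of *Dnajb1* to *Hspa8* FPKM was 0.127 to 0.133 under PBS and 0.185, 0.127 and 0.246 in CTX samples 1, 2 and 3, so in CTX sample 2 both genes were higher in the same proportion.

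The remaining J proteins of the cytosol did not pass the test. *Dnaja2*, *Dnajb6* and *Dnaja1*, which serve HSP70 in general folding and in holding aggregation-prone chains, had log2 fold changes of 0.18, 0.13 and 0.13, and those of *Dnaja2* and *Dnajb6* came with separate groups. *Dnajb2*, a J protein best known from neurons, was at 9.73, 9.36 and 11.5 FPKM under PBS and 9.04, 7.72 and 7.90 FPKM under CTX. Each CTX sample of *Dnajb2* was below the PBS samples, with a log2 fold change of -0.30 (SE 0.11, adjusted p 0.208 in limma). *Dnaja4* overlapped between the groups, from 3.80 to 7.78 FPKM under CTX, and 42.7% of its 50-base stretches lie in *Wdr61* on the opposite strand. Of the 9 J proteins, including those of the ER, 1 passed.

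Co-chaperones and nucleotide exchange factors set how long HSP70 and HSP90 hold a client. *Bag3* (ENSMUSG00000030847, chr7:128523616-128546981) was at 20.3, 22.3 and 20.1 FPKM under PBS and at 31.6, 42.1 and 29.5 FPKM under CTX. All CTX samples were above all PBS samples and CTX sample 2 was the highest. The means were 20.9 ± 1.22 and 34.4 ± 6.75 FPKM (SD, n = 3), a 1.65-fold difference (log2 0.70, SE 0.14, adjusted p 0.0759 in limma). Without CTX replicate 2 it was smaller and passed (log2 0.55, adjusted p 0.0198 in limma). With any other sample left out *Bag3* did not pass (adjusted p 0.0688 to 0.275 in limma). *Stip1*, which bridges HSP70 and HSP90, and *Chordc1*, an HSP90 partner, were both lower in each CTX sample, with means of 82.3 against 93.9 and 6.97 against 8.20 FPKM and adjusted p-values of 0.225 and 0.195 in limma. The 3 HSP110 genes overlapped between groups. *Hsph1*, which is heat-inducible and carries a 3-unit HSE, was at 14.8, 15.1 and 15.2 FPKM under PBS and 12.6, 15.5 and 10.3 FPKM under CTX, with an adjusted p of 0.378 in limma. *Hspa4l* was at 3.89, 3.33 and 3.43 FPKM under PBS and 3.37, 2.64 and 2.66 FPKM under CTX (adjusted p 0.278 in limma). *Hspa4* was at 75.0 FPKM in CTX sample 2 and at 48.7 to 52.2 FPKM in the other 5 samples.

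HSP90 made up the largest share of the chaperone RNA. *Hsp90ab1*, the constitutive cytosolic form, was at 909, 868 and 929 FPKM under PBS and 1023, 1105 and 1003 FPKM under CTX. Each CTX sample was above the PBS samples, and the 1.16-fold difference did not pass the test (95% interval 0.99 to 1.36, adjusted p 0.281 in limma). Its direction turned under quantile normalization, where the log2 fold change was -0.05. *Hsp90aa1*, the inducible form, was at 133, 131 and 133 FPKM under PBS and 137, 158 and 137 FPKM under CTX. The CTX samples were just above the PBS samples apart from the higher CTX sample 2, and the fold change was 1.09 (95% interval 0.95 to 1.24, adjusted p 0.436 in limma). Of the 50-base stretches of *Hsp90aa1*, 47.5% occur in other genes, mostly in *Gm12346*, which was at 2.68 to 3.25 FPKM.

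Among the chaperones of the ER, *Hsp90b1* and *Dnajb11* were lower in level under CTX without passing the test. *Hsp90b1* (ENSMUSG00000020048, chr10:86690209-86705509) makes GRP94, which folds secreted and membrane proteins. It was at 467, 454 and 476 FPKM under PBS and 395, 344 and 365 FPKM under CTX. The groups were separate, and the mean of 368 ± 25.6 FPKM was 0.79 times the PBS mean of 466 ± 11.4 FPKM (SD, n = 3, log2 -0.34, SE 0.085, adjusted p 0.121 in limma). *Dnajb11*, the J partner of the ER HSP70, was at 76.7, 73.7 and 84.9 FPKM under PBS and 67.6, 63.7 and 60.0 FPKM under CTX, again with separate groups (log2 -0.30, SE 0.082, adjusted p 0.144 in limma). *Dnajc3*, a J protein that also inhibits the kinase PERK, was at a mean of 58.4 FPKM under PBS and 60.1 FPKM under CTX. The 4 ER members, *Hspa13* included, summed to 623, 603 and 638 FPKM under PBS and to 540, 494 and 501 FPKM under CTX. Most of that sum was *Hsp90b1*. As deposited, *Dnajc3* and *Hspa13* had log2 fold changes of 0.04 and 0.05, while after scaling to total FPKM all 4 were below 0. The element that ATF6 and NF-Y read in ER chaperone promoters, called the ER stress response element and searched by name in its exact form on both strands, was found in 2 of the 32 member genes (6.25%), beside 0.137% of all genes. It is shown in capitals because both genes that hold it are in this compartment. Neither *Hsp90b1* nor *Dnajc3* passed the test (adjusted p 0.121 and 0.825 in limma), and their changes were not compared. *Hsp90b1* has it at 212 and 107 bases before the start site, the second copy on the other strand, and *Dnajc3* at 105 bases before it.
*Hsp90b1* (chr10:86705513-86705676, minus strand): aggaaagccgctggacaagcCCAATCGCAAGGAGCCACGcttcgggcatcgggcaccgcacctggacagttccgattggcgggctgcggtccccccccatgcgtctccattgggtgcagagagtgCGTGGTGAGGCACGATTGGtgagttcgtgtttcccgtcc
*Dnajc3* (chr14:118937807-118937865, plus strand): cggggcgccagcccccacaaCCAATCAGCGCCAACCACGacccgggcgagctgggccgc

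Beside these, *Hspa5*, the ER HSP70 (BiP) and the usual marker of ER stress, was at 597, 579 and 628 FPKM under PBS and 571, 600 and 528 FPKM under CTX. Its groups overlapped (fold change 0.94, 95% interval 0.81 to 1.09, adjusted p 0.600 in limma). The ratio of *Hsp90b1* to *Hspa5* FPKM was 0.759 to 0.783 under PBS and 0.691, 0.574 and 0.691 under CTX, so the level of *Hsp90b1* was lower relative to *Hspa5* in each CTX sample.

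**Figure D4:**
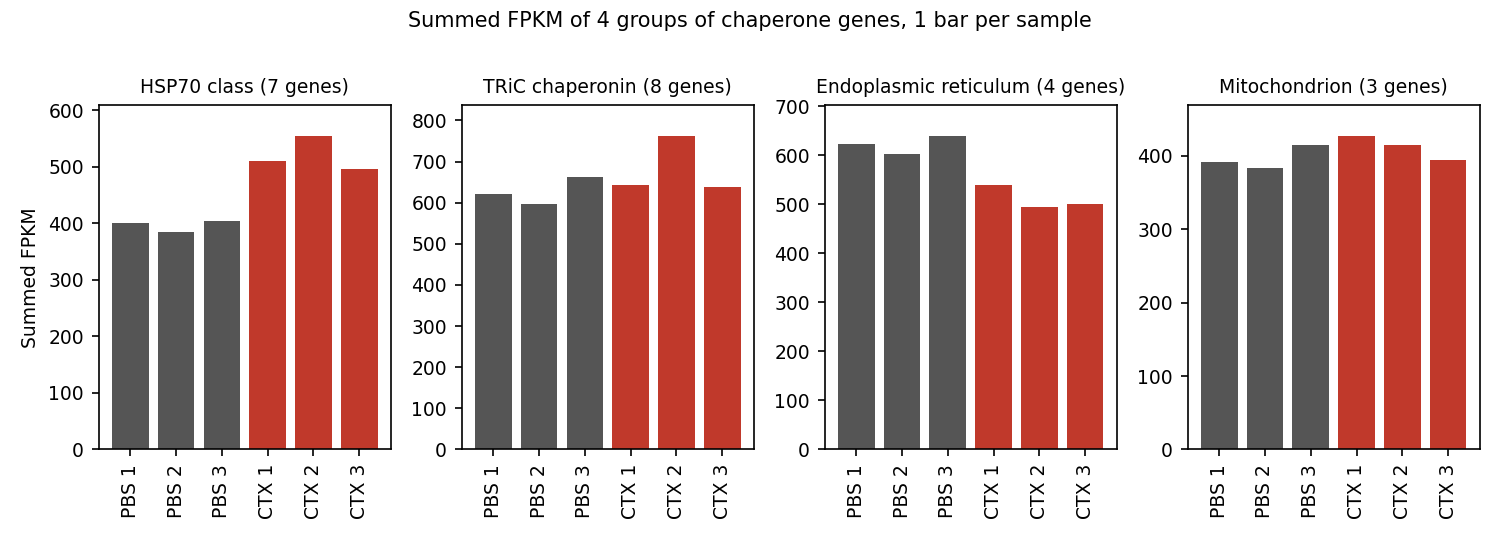
Summed FPKM (vertical axes, each starting at 0) of 4 groups of chaperone genes, with 1 bar for each PBS sample (grey) and CTX sample (red). The HSP70 sum, most of it *Hspa8*, is higher in all 3 CTX samples (496 to 554 against 384 to 405). The ER sum, most of it *Hsp90b1*, is lower (494 to 540 against 603 to 638). The TRiC sum is higher in CTX sample 2 alone (761).

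Small HSPs hold unfolded chains without using ATP. *Hspb1* was at 19.4, 18.3 and 19.3 FPKM under PBS and 22.2, 25.9 and 27.8 FPKM under CTX. All CTX samples lay above the PBS samples, with a 1.33-fold difference of the means (log2 0.41, SE 0.095, adjusted p 0.107 in limma). Without CTX replicate 1 it passed (log2 0.50, adjusted p 0.0366 in limma). With any other sample left out *Hspb1* did not pass (adjusted p up to 0.371 in limma). Of its 50-base stretches, 50.1% occur in other genes, mostly in the pseudogene *Hsp25-ps1*, which was at 0 to 0.350 FPKM. *Hspb8*, the partner of BAG3 in aggregate clearance, was at 7.16, 6.27 and 6.997 FPKM under PBS and 8.12, 1.79 and 5.58 FPKM under CTX. CTX sample 1 was the highest and CTX sample 2 by far the lowest, so that the groups overlapped (log2 -0.63, SE 0.51, adjusted p 0.509 in limma), and without CTX replicate 2 the log2 fold change was -0.01. *Cryab* was at 0.642 to 0.895 FPKM over all samples, on 16 to 24 reads, and no difference was detectable at that depth (95% interval of the fold change 0.71 to 1.54).

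The barrel-shaped chaperonins enclose a client while it folds. The mitochondrial pair, which acts as HSP60 with its lid HSP10, overlapped between the groups. *Hspd1* was at 180, 180 and 187 FPKM under PBS and 200, 190 and 181 FPKM under CTX (fold change 1.04, 95% interval 0.93 to 1.17, adjusted p 0.640 in limma). *Hspe1* was at 117, 115 and 135 FPKM under PBS and 129, 116 and 114 FPKM under CTX (fold change 0.98, 95% interval 0.84 to 1.14, adjusted p 0.871 in limma). The sign of *Hspd1* depended on the scaling, since its log2 fold change was -0.01 after scaling to total FPKM and -0.02 after quantile normalization.

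All 8 TRiC subunits (*Tcp1*, *Cct2*, *Cct3*, *Cct4*, *Cct5*, *Cct6a*, *Cct7* and *Cct8*) had log2 fold changes above 0 as deposited, against 5 after scaling to total FPKM and 6 after quantile normalization or with voom. They ran from 0.01 for *Tcp1* to 0.23 for *Cct4*, and none passed the test (lowest adjusted p 0.339 in limma). In all 8 the groups overlapped and CTX sample 2 was the highest of the 6 samples. Their summed FPKM was 621, 597 and 663 under PBS and 643, 761 and 639 under CTX, so that CTX samples 1 and 3 lay inside the range of the PBS samples. The subunits, which assemble in equal numbers into the double ring, were thus highest together in a single sample. That sample also had the highest summed macrophage and leukocyte markers (72.6 FPKM, of which *Lyz2* was 45.8). It had the lowest summed theca and stroma and summed erythroid markers. Not each marker followed its sum, since *Acta2* was highest and *S100a8* lowest there. The part of these cell types in the TRiC levels was not tested.

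**Figure D5:**
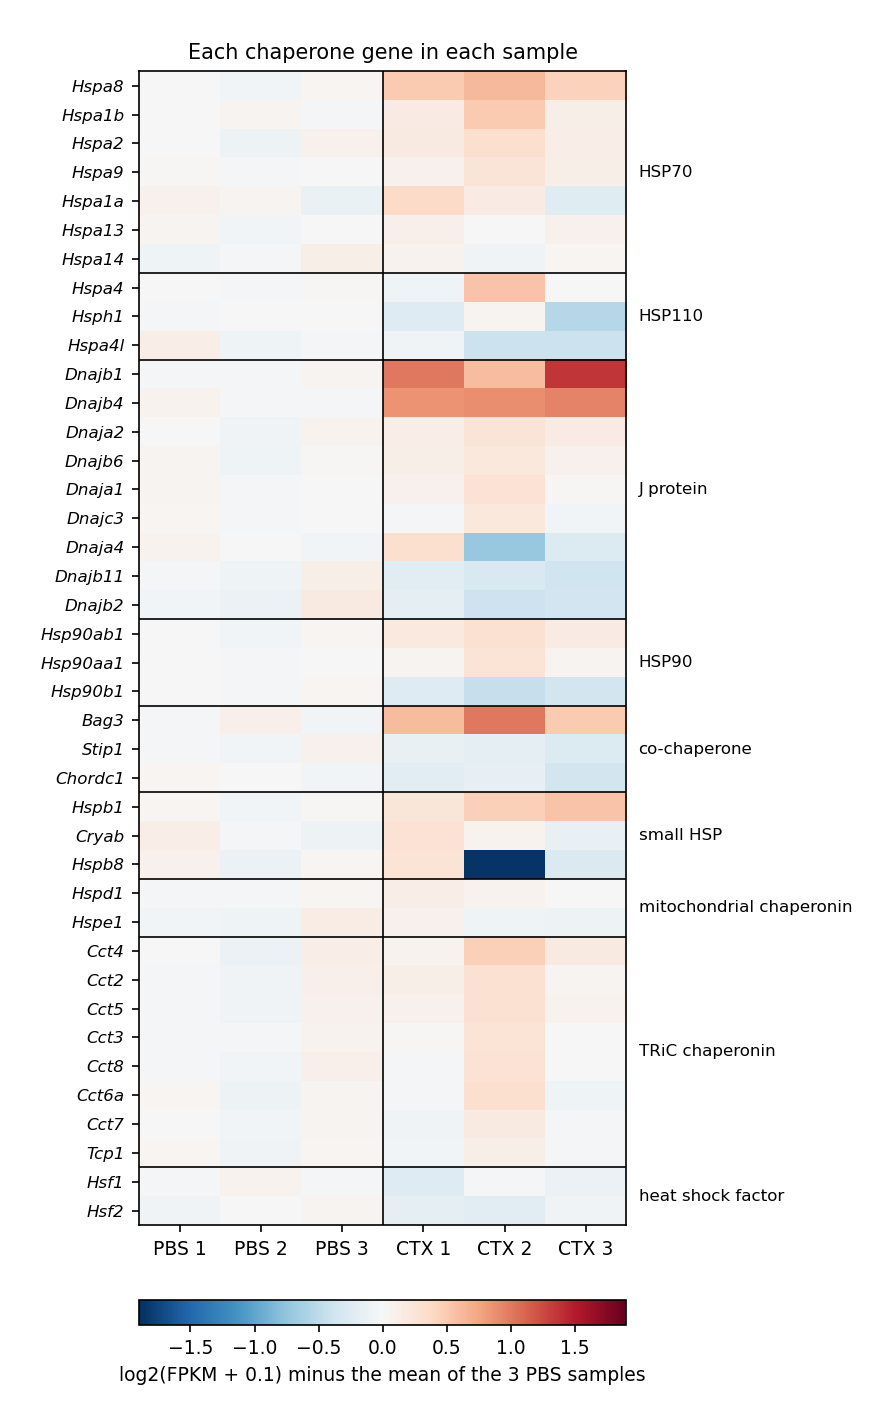
Log2(FPKM + 0.1) of each of the 40 genes (rows, by class) in each sample (columns), minus the mean of the 3 PBS samples, where red is higher and blue lower. *Hspa8*, *Dnajb1*, *Dnajb4* and *Bag3* are red in all 3 CTX samples, the TRiC block is red mainly in CTX 2, and *Hspb8* is darkest blue in CTX 2 (-1.87).

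Neither of the heat shock factors passed the test. *Hsf1*, which is regulated mainly as a protein, was at 8.62, 9.21 and 8.66 FPKM under PBS and 7.45, 8.68 and 8.14 FPKM under CTX, with overlapping groups (log2 -0.13, SE 0.082, adjusted p 0.415 in limma). *Hsf2* was at means of 3.90 and 3.51 FPKM (log2 -0.15, adjusted p 0.389 in limma). *Hsbp1*, which encodes a binding protein of HSF1 and is no member, was at 57.4 to 66.1 FPKM under PBS and 61.7 to 64.6 FPKM under CTX (adjusted p 0.685 in limma).

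Beyond the 40, 98 other genes of protein folding and its control were listed, of which 86 passed the expression filter. They comprised other J proteins, HSP70 and HSP90 co-factors, small HSPs, prefoldin and tubulin folding factors, heat shock factors and known HSF1 targets. Of the 86, 2 rose and none fell (limma, adjusted p below 0.05), beside 1.4% and 0.36% of tested genes. At an unadjusted p below 0.05, 5 of the 86 were higher and 8 lower, beside 10.5% and 9.1% of tested genes. The median log2 fold change of the 86 was -0.001. *Dnajb9*, an ER J protein that restrains the sensor IRE1, was 1 of the 2 and rose 1.48-fold from 18.8 ± 1.18 to 27.7 ± 1.802 FPKM (SD, n = 3, log2 0.56, SE 0.080, adjusted p 0.0282 in limma). The call of *Dnajb9* was lost without PBS replicate 1, 2 or 3 (adjusted p 0.0983, 0.165 and 0.134) and without CTX replicate 3 (0.115), in limma. Of the 4 known HSF1 targets listed outside the members, 3 had a log2 fold change above 0 and 1, *Serpinh1*, below 0. *Serpinh1*, the collagen chaperone HSP47, was at 438, 433 and 470 FPKM under PBS and 416, 300 and 361 FPKM under CTX. Each CTX sample of *Serpinh1* was below the PBS samples (log2 -0.33, SE 0.13, adjusted p 0.245 in limma), with CTX sample 2, which had the lowest sum of theca and stroma markers but the highest *Acta2*, the lowest. *Stub1*, the ubiquitin ligase that acts on HSP70 clients, was at 31.8 to 36.3 FPKM under PBS and 32.4 to 35.3 FPKM under CTX (adjusted p 0.901 in limma).

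Reads from shared sequence cannot be placed with certainty. Of the 40, 14 shared no 50-base stretch with another gene, 16 shared up to 20% and 10 shared more than 20%, and 14 overlapped another gene's exons. Of the genes that rose, *Dnajb4* is among the 14 without sharing and *Hspa8* among the 10 with more than 20%.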

How the data were processed

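RNA-seq was compared in 6 GC samples, 3 given PBS and 3 given CTX, grouped by their labels. The authors deposited FPKM values with gene coordinates and lengths for each sample. The submitters' processing notes name CASAVA 1.8, fastp, HISAT2 2.0.5, featureCounts 1.5.0-p3, DESeq2 1.20.0 and mm10, with no role or order. Whether counting used strand is not given in the sources used here. The deposited columns of group means, log2 fold changes and p-values are the authors' own comparison and were not used, and 0 columns of single samples were left unused.

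FPKM multiplied by gene length gave whole multiples of 1 read (tolerance 0.02) for 100% of values above 0, so reads could be rebuilt. FPKM was compared as log2(FPKM + 0.1) with limma 3.58.1 (lmFit, eBayes with trend) in R 4.3.3, over genes with a mean of at least 0.5 FPKM, with Benjamini-Hochberg adjustment over all of them. Fold changes are ratios of mean FPKM, while log2 fold changes, SEs and 95% intervals come from the fit on the log2(FPKM + 0.1) scale, which understates changes of low genes. The fit was tested on simulated data with an even spread across samples. That test does not cover a sample that stands apart, as CTX replicate 2 did. Members and lists were chosen with earlier results of these data known. Values in every sample are given for members that were called, the 5 with the largest rise, the 5 with the largest fall and 13 inducible or abundant members. Of the other proteostasis genes, those called and *Hspa5*, *Hsbp1*, *Stub1* and *Serpinh1* are named, except 1 called gene that is not reported here. Overlap and shared 50-base stretches were taken from GENCODE M21 (GRCm38), in which 54495 of 54532 identifiers occur and 39 of the 40 members have the same start and end. Promoters and start sites are RefSeq's. Alternatives covered pseudocount, filter, scaling, block, weights, eBayes trend, rebuilt reads, genes tested, threshold and each sample left out. Python 3.11.15 with pandas 2.3.3, NumPy 2.4.6 and SciPy 1.17.1 was used, and figures were drawn with matplotlib 3.10.9.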

Additional observations from a re-analysis of the deposited data

How the results depend on the processing

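Of the 430 recomputed values of single named genes, 384 kept their direction and side of the threshold, 17 lost it, 16 gained it and 13 changed sign. The median log2 fold change of the members stayed above 0 at every setting (0.0045 after scaling to total FPKM to 0.14). That scaling moved the median of all tested genes from -0.01 to -0.08. The median log2 deviation of the members from their PBS means overlapped between the groups. As deposited, it was 0.0080, -0.045 and 0.038 in PBS samples 1, 2 and 3. In CTX samples 1, 2 and 3 it was 0.082, 0.198 and -0.0078 (within-group SD 0.079). Among refits at the same threshold, *Dnajb4* was lost with a replicate block alone (adjusted p 0.0686) and *Hspa8* in 9 of 18 refits, with adjusted p-values from 0.000742 to 0.206.

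The members called higher were 1 with no filter on low values, 1 with eBayes without trend, 1 after quantile normalization (where 1, *Hsp90b1*, was called lower), 3 over protein-coding genes only (*Dnajb1* added), 0 beyond 2-fold (both lost) and 6 with 5 lower at an unadjusted p. At that unadjusted p, 10.5% of tested genes were higher and 9.1% lower. Over all tested genes, 254 were called in the main fit, 194 with no filter and 210 without trend. There were 278 after quantile normalization and 303 over protein-coding genes only. Leaving out each sample in turn gave 1 to 4 higher and 0 lower. The 4, without CTX replicate 2, were *Bag3*, *Dnajb1*, *Dnajb4* and *Hspa8*, where 526 of all tested genes were called. The 2 without CTX replicate 1 were *Dnajb4* and *Hspb1*, where 438 of all tested genes were called. *Dnajb4* alone was called without each of the others, where 70 to 106 of all tested genes were called. Other proteostasis genes called were 1 after scaling to total FPKM, with eBayes without trend or beyond 2-fold, 13 at an unadjusted p, and 1 to 3 with a sample left out.

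arrayWeights called 10 members higher and 7 lower, 31 other proteostasis genes and 5753 genes in all. Its estimation stopped before convergence and gave CTX replicate 3 a weight of 16.6 and CTX replicates 1 and 2 weights of 0.304 and 0.163, so these calls rest largely on 1 CTX sample.

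With the replicate block, 0 members, 1 other proteostasis gene and 53 genes in all were called. The same-numbered samples came from different mice, their deviations correlated at 0.056, 0.024 and 0.0058, and the numbers were not taken as a pairing.

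Signs changed in genes far from the threshold. *Hsp90ab1* was at -0.047 after quantile normalization, *Hspa1a* at -0.24 with arrayWeights and -0.038 to 0.26 with a sample left out, *Hspd1* at -0.014 after scaling to total FPKM and -0.017 after quantile normalization, and *Hspe1* at -0.088 to 0.041 with a sample left out. *Hsbp1* was at -0.019 after scaling to total FPKM and -0.0049 after quantile normalization, and *Stub1* at 0.021 with arrayWeights and -0.082 to 0.019 with a sample left out. The causes of these changes were not tested. The fewest reads a sample lay behind *Cryab* (16 to 24), *Hspb8* in CTX sample 2 (62) and *Hspa1a* (109 to 174), and intervals cover neither single mice nor time points other than 6 h.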
